A study of Rattus norvegicus with 8 samples.

Results

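Ttr, Kl, Folr1, Clic6, Aqp1, Otx2, Sostdc1 and Prlr are known from the choroid plexus, and their reads were followed rat by rat in dissected striatum. All 8 symbols were listed in the count table, which held 17337 genes. The genes were chosen by name, with earlier results of these data known. The samples were the striata of 8 wild-type (WT) male Sprague-Dawley rats. Of these, 4 had self-administered METH through a jugular catheter at 0.05 mg/kg per infusion, 2 h a day for 16 days, and 4 had self-administered saline with the same surgery and sessions. All rats were first trained to press a lever for food, and all were anesthetized with ketamine and xylazine when the brains were taken. The animals' age and the borders of the striatal dissection are not given in the sources used here. Each library came from 1 rat, and the counts are deposited without pooling.

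The choroid plexus is a fold of secretory epithelium that hangs in the brain ventricles, and the striatum borders the lateral ventricle. Its cells make cerebrospinal fluid, carry hormones and vitamins from blood into that fluid, and express Ttr as one of their most abundant mRNAs. The homeobox factor Otx2 is required for this epithelium to form and to be maintained. Reads of these genes in dissected striatum could come from choroid plexus that was taken along, but counts alone do not tell from which cells a read came.

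Total counts lay between 18135939 and 21211920 per rat, and levels are given as CPM, reads scaled to a common library size with TMM factors for library composition. A floor of 3 reads, or from 0.142 to 0.169 CPM, was used as the one-sided limit that a count of 0 in a rat allows. Intervals on single rats are exact two-sided 95% Poisson intervals, which for a count of 0 reach from 0.174 to 0.208 CPM, and both cover counting error only. METH rat 3 had the lowest TMM factor, 0.956, against 0.991 to 1.018 in the other rats. In bulk tissue, fewer cells of a type and less RNA per cell cannot be told apart. The library kit is not stated to keep strand, so reads of a gene and of an antisense partner are counted together. CPM is not corrected for transcript length, and levels are therefore compared between rats and not between genes.

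The defining markers of choroid plexus were at or near 0 in most rats, which goes against calling these reads choroid plexus transcripts throughout. Ttr had at most 36 reads in any rat, Otx2 was at 0 reads in all 8 rats, and 5 of the 8 genes were at 0 reads in at least 1 rat. A count of 0 in all rats was shared by 16.9% of the genes in the table, among them the hemoglobin gene Hba1, while Hbb had 2115 to 4362 reads, so that the 0 of Otx2 alone says little. Only Folr1, Clic6 and Aqp1 reached 3 reads in every rat. Folr1 and Clic6 together held 78.6% of the reads of the 8 genes, a share of reads that is not corrected for length. Summed over the 8 genes, each rat had between 91 and 195 reads, or from 4.99 to 9.54 CPM.

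Ttr encodes transthyretin, the secreted carrier of thyroid hormone and of retinol-binding protein in cerebrospinal fluid. Its reads numbered 1, 0, 3 and 0 in saline rats 1 to 4, against 28, 4, 36 and 0 in METH rats 1 to 4. METH rats 1 and 3 thus stood above the other 6 rats, while METH rat 4 had no read, and the groups overlapped. The levels were 1.37 CPM in METH rat 1 (95% interval 0.911 to 1.98) and 2.03 CPM in METH rat 3 (1.42 to 2.82). All saline rats were at or below 0.145 CPM, and METH rat 2 was at 0.190 CPM. Across rats, Ttr therefore ranged from no detected read to a level of a few CPM at most, reached in METH rats 1 and 3.

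Folr1 encodes folate receptor alpha, which takes up folate and, in the choroid plexus, passes it to the cerebrospinal fluid. The saline rats gave 31, 61, 68 and 58 reads of it, against 83, 80, 53 and 73 for METH. The lowest value was that of saline rat 1, at 1.70 CPM, and the highest that of METH rat 1, at 4.06 CPM. METH rat 3, which had the most Ttr reads, had the fewest Folr1 reads of the METH rats, and its level of 2.99 CPM lay inside the saline range. Folr1 was the most evenly read of the 8 genes, with a coefficient of variation of 0.239 over the 8 rats.

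Clic6 encodes a member of the chloride intracellular channel family. The saline rats gave 35, 20, 30 and 37 reads of it, against 64, 32, 47 and 63 for METH. METH rats 1, 3 and 4 were above every saline rat, with 2.65 to 3.32 CPM against 1.00 to 1.92 CPM, and METH rat 2, at 1.52 CPM, was not. Aqp1 encodes the water channel of the apical membrane of choroid plexus cells. Aqp1 reads numbered 14, 9, 14 and 8 under saline, against 10, 4, 12 and 8 under METH. These levels, 0.190 to 0.768 CPM, ran through both groups without a separation.

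Kl encodes klotho, the co-receptor through which FGF receptors bind FGF23. Kl reads numbered 5, 13, 14 and 0 under saline, against 7, 2, 6 and 8 under METH. Both the highest and the lowest Kl values were thus in saline rats. Prlr encodes the prolactin receptor and was read once in saline rat 1, 2 times in saline rat 3 and not at all in the other rats. No rat reached 3 Prlr reads. Sostdc1 encodes a secreted antagonist of BMP and Wnt signaling and had 4, 0, 1 and 10 reads under saline, against 3, 1, 0 and 0 under METH. Its highest value, in saline rat 4, was in a rat that had no read of Ttr, Kl or Prlr.

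**Figure D1:**
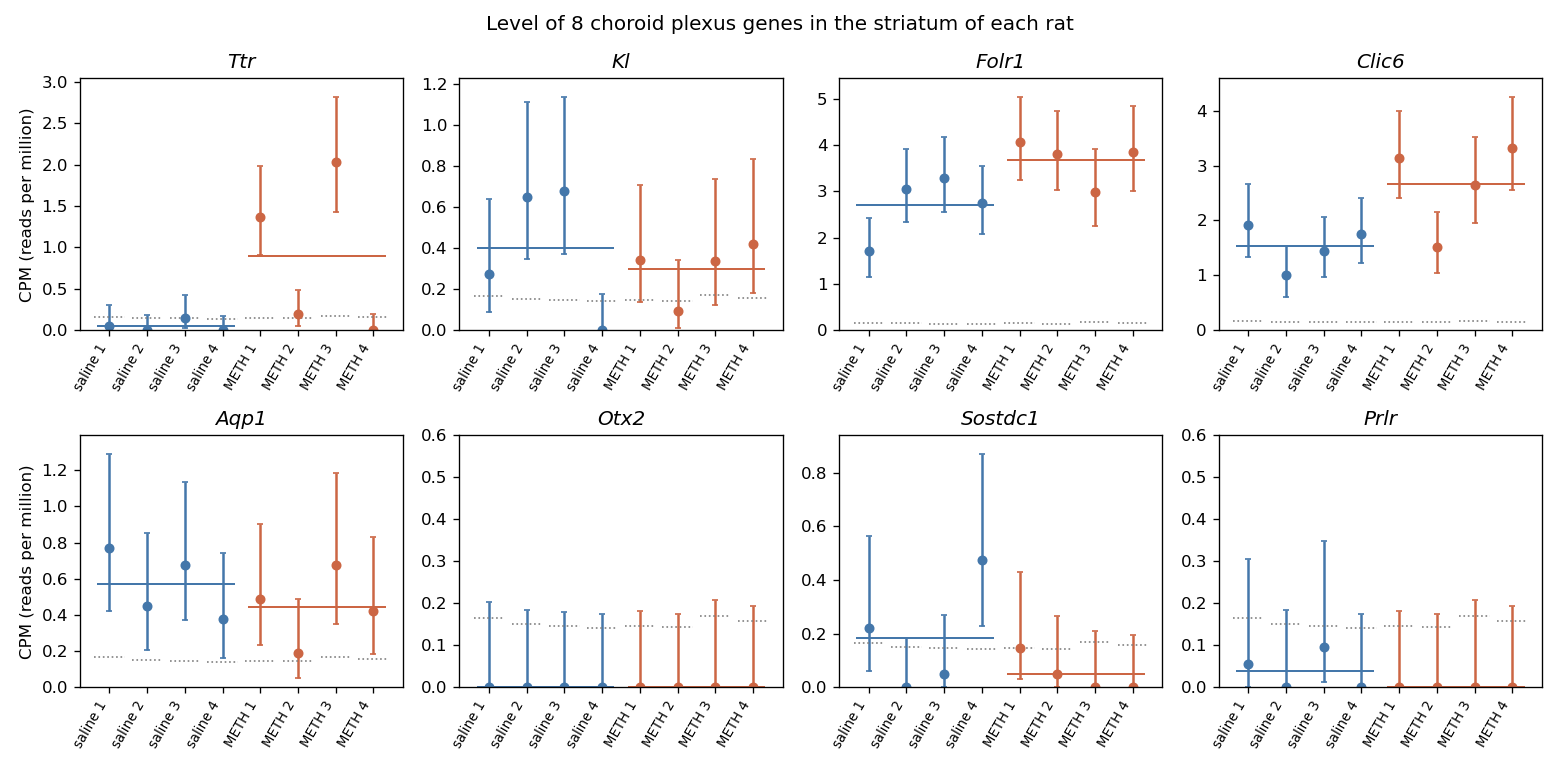
CPM of the 8 genes in each rat, with saline rats in blue and METH rats in orange. Points are single rats, vertical bars are exact 95% Poisson intervals of the counts, horizontal lines are group means and dotted lines mark 3 reads. Otx2 is at 0 throughout, Ttr rises above the dotted line clearly only in METH rats 1 and 3, and Folr1 and Clic6 are above it in all 8 rats.

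The 8 genes were not high in the same rats. The highest rat was METH rat 3 for Ttr, saline rat 3 for Kl and Prlr, METH rat 1 for Folr1, METH rat 4 for Clic6, saline rat 1 for Aqp1 and saline rat 4 for Sostdc1. Ttr had between 0 and 67.9 reads per 100 Folr1 reads, with a median of 3.82 over the rats. METH rat 3 gave the highest ratio and METH rat 1 the next, 33.7, and the other 6 rats gave at most 5 reads. Clic6 had between 32.8 and 113 reads per 100 Folr1 reads, the lowest in saline rat 2 and the highest in saline rat 1. Aqp1 had between 5 and 45.2, and Kl between 0 and 21.3. The Ttr values fell into METH rats 1 and 3 on one side and 6 rats near 0 on the other, so that no correlation with Ttr across rats is given.

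**Figure D2:**
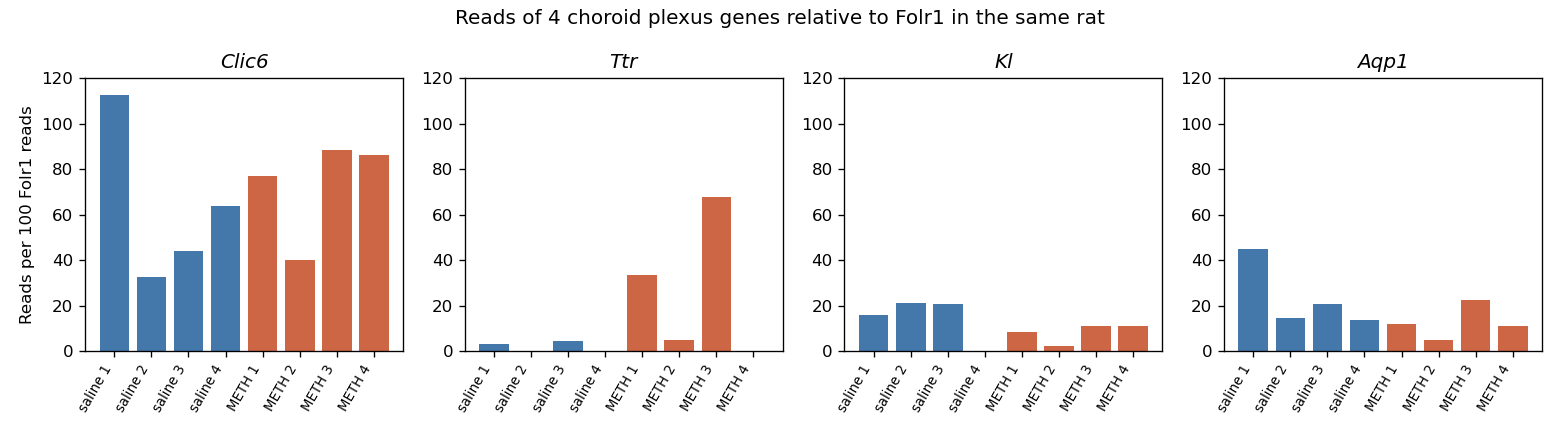
Reads of Clic6, Ttr, Kl and Aqp1 per 100 Folr1 reads in the same rat, with saline rats in blue and METH rats in orange. The Ttr ratio is 67.9 in METH rat 3 and 33.7 in METH rat 1 and at most 5 in the others, whereas Clic6 lies between 32.8 and 113.

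The groups were compared over 12014 genes with edgeR, whose quasi-likelihood test takes the spread between rats into account, with Benjamini-Hochberg adjustment over all of them. Of the 8 genes, 2 passed the filter on low counts, Folr1 and Clic6, and neither was called at an FDR below 0.05, a threshold that 0.516% of the genes tested passed. At an unadjusted p below 0.05, which 11.1% of the genes tested reached (6.26% higher and 4.88% lower in METH rats), Clic6 alone was past the threshold. DESeq2, the likelihood ratio test of edgeR and limma-voom also called none of those they gave an adjusted p. The groups did not separate fully for any of the 8 genes, of which 6 had failed the filter. They did for 6.39% of the genes tested and for 807 of all 17337 genes in the table. None of 8 is near either share, and Otx2, at 0 reads in all rats, could not separate. The smallest two-sided p that an exact permutation of 4 rats against 4 can give is 0.0286, and none of the 8 genes reached it.

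Clic6 averaged 1.53 ± 0.403 CPM (SD, n = 4) under saline, against 2.66 ± 0.807 CPM (SD, n = 4) under METH. The fitted log2 fold change was 0.79 (standard error 0.34, unadjusted p = 0.0335, FDR = 0.412, edgeR), or 1.73 times the saline level with a 95% interval from 1.05 to 2.86. In the exact permutation test of log2 CPM the two-sided p was 0.0857. Folr1 averaged 2.69 ± 0.698 CPM (SD, n = 4) under saline, against 3.68 ± 0.470 CPM (SD, n = 4) under METH. The fitted log2 fold change was 0.45 (standard error 0.26, FDR = 0.525, edgeR), or 1.36 times the saline level with a 95% interval from 0.926 to 2.01. For both genes the METH mean was higher, and neither difference was shown beyond the spread between rats once all genes were taken into account.

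Ttr averaged 0.0499 ± 0.0684 CPM (SD, n = 4) under saline, against 0.899 ± 0.969 CPM (SD, n = 4) under METH. Summed over rats there were 4 saline and 68 METH reads, a ratio of 17.4 with a 95% counting interval from 6.50 to 65.8, and that interval does not hold the spread between rats. The exact permutation test of log2 CPM gave a two-sided p of 0.171. When all genes with at least 1 read were tested, the unadjusted p of Ttr was 0.00424 and its FDR 0.222 in the quasi-likelihood test of edgeR. METH rats 1 and 3 held 64 of the 68 METH reads. The difference in mean log2 CPM was 1.97 with all rats, and with 1 rat left out it lay between 1.32, without METH rat 3, and 2.79, without METH rat 4. It was also larger with a prior count of 0.5 in place of 2.

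The other genes with reads gave no separation between the groups. Aqp1 averaged 0.568 ± 0.184 CPM (SD, n = 4) under saline, against 0.445 ± 0.201 CPM (SD, n = 4) under METH (exact permutation test, two-sided p = 0.457). Kl averaged 0.400 ± 0.324 CPM (SD, n = 4) and 0.300 ± 0.142 CPM (SD, n = 4) in the same order (exact permutation test, two-sided p = 1). With the prior count set to 0.5 in place of 2, the sign of the Kl difference in log2 CPM turned from -0.04 to 0.25. Sostdc1 had 15 saline and 4 METH reads (exact permutation test, two-sided p = 0.286), and Prlr had 3 saline reads and no METH read. At this depth no difference in Prlr or Otx2 was detectable.

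A further list of 25 genes known from choroid plexus epithelium was compared, of which 21 were in the table. None was called, either higher or lower, and none was past an unadjusted p of 0.05 among the 11 that passed the filter. Their median log2 fold change was 0.21, against -0.01 over all genes tested. In 10 of the 21 genes every rat had at least 3 reads, and 7 were at 0 in at least 1 rat.

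Spint2, which encodes a protease inhibitor, was at 60.8 ± 4.62 CPM (SD, n = 8), and the carbonic anhydrase gene Car12 was at 42.4 ± 9.41 CPM (SD, n = 8). Krt8 and Krt18, epithelial keratins, had 61 to 172 and 24 to 79 reads per rat, and the homeobox gene Msx1 had 59 to 133. Slc13a4, a sulfate transporter, had 59 to 103 reads, Calml4 had 17 to 54 and the potassium channel subunit gene Kcne2 had 8 to 53. In METH rat 3, the rat with the most Ttr reads, Kcne2, Krt8 and the bicarbonate transporter gene Slc4a5 were at their lowest level, whereas Spint2, Msx1 and Cldn2 were at their highest. Some of these were near ties: Krt8 had 61 reads against 63 in saline rat 1, and Slc4a5 1 against 2 in saline rat 2. Msx1 was at 7.23 CPM against 6.75 CPM in METH rat 4. Lbp, Cldn1, Cldn3, Slco1a5 and F5 were at 0 reads in METH rat 3, as in some other rats. Steap1, a metalloreductase gene singled out after its values were seen, had 13, 8, 10 and 1 reads in METH rats 1 to 4 and 1 to 4 reads in the saline rats. The tight junction gene Cldn2 had 0 to 8 reads, the potassium channel gene Kcnj13 0 to 10, and F5, coagulation factor V, 0 to 3. Cldn2, Kcnj13 and F5 were thus at few reads, while Spint2 and Car12 were read at least 648 times in every rat. The coefficient of variation over the 8 rats was 0.076 for Spint2 and 1.65 for Ttr. Which cells the Spint2 and Car12 reads came from was not tested.

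**Figure D3:**
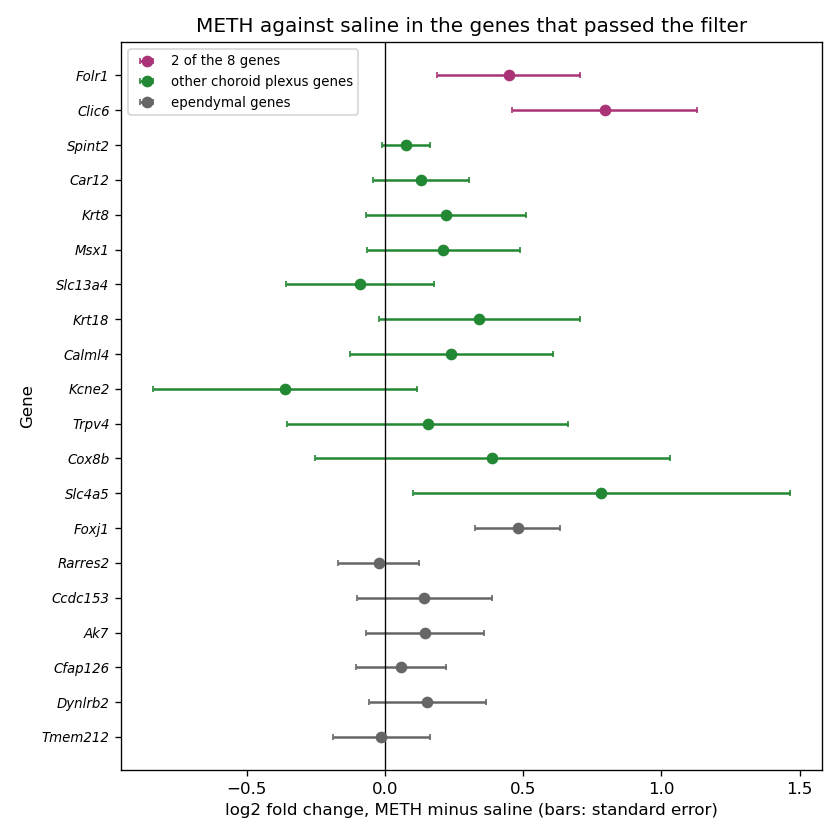
Log2 fold change of METH against saline rats with its standard error for the tested genes, with Folr1 and Clic6 in purple, other choroid plexus genes in green and ependymal genes in grey. Clic6 lies at 0.79 and Folr1 at 0.45, the other choroid plexus genes have a median of 0.21, and no gene shown was called.

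No gene was called with edgeR in 7 lists of genes that work with these 8, which cover thyroid hormone, folate, klotho, prolactin, BMP and Wnt, water and chloride channels, and homeobox factors. Their counts at an unadjusted p below 0.05 stand beside the 4.88% of all tested genes that were lower at that threshold. Of 11 genes for thyroid hormone and retinol handling, 1 was lower at an unadjusted p below 0.05, Slco1c1, the thyroxine transporter of brain capillaries. The saline rats gave 2028, 2531, 1985 and 2571 reads of it, against 1820, 1831, 1389 and 1796 for METH, and the groups did not overlap in CPM. The fitted log2 fold change was -0.38 (standard error 0.10, FDR = 0.132, edgeR). Rbp4, the retinol-binding protein that Ttr carries, also did not overlap, and its log2 fold change was 0.14 (FDR = 0.474, edgeR). The groups did not overlap for 6.39% of all tested genes.

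Of the 7 folate genes tested, none was past an unadjusted p of 0.05, and the choroid plexus folate partner Slc46a1, the proton-coupled folate transporter, had a log2 fold change of -0.20 (FDR = 0.548, edgeR). Of 5 tested genes around klotho, the receptor gene Fgfr1 alone was lower at an unadjusted p below 0.05, and Fgf23 had 0 to 3 reads per rat. Of 8 tested genes around the prolactin receptor, none was past that threshold, and Prl and Gh1, the prolactin and growth hormone genes, were at 0 in all rats. Among the 9 tested BMP and Wnt partners of Sostdc1, the receptor gene Bmpr1b, whose groups did not overlap in CPM, was lower at an unadjusted p below 0.05. Among 7 tested aquaporin and Clic genes, Clic4 and Clic5 were lower at that threshold, against 4.88% of all tested genes. The astrocyte water channel gene Aqp4 had 6581 to 9815 reads per rat with a log2 fold change of -0.12. Of the 4 tested homeobox genes none was past the threshold, and Otx1, the paralog of Otx2, had 5 to 26 reads per rat.

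Of 9 choroid plexus genes that other brain cells also express, none was called, and 2, Enpp2 and Trpm3, were lower at an unadjusted p below 0.05, against 4.88% of all tested genes. Markers of neighbouring cell types were measured beside these values. The 10 genes of striatal projection neurons were read in every rat, and they summed to between 14613 and 15436 CPM in saline rats and between 15424 and 19514 CPM in METH rats. The summed striatal level was highest in METH rat 3, where Ppp1r1b was at 10288 CPM against at most 8190 CPM in the other rats. Drd1, on the same list, was at its lowest in that rat, at 450 CPM, next to 451 CPM in saline rat 2. Of the 10 striatal genes none was called, and 3 were higher at an unadjusted p below 0.05, against 6.26% of all tested genes. Ependymal cells line the ventricle wall, and 7 of their 8 listed genes in the table had at least 110 reads in every rat. The exception was Mia, with 0 to 13 reads and the most in METH rat 3. Foxj1, the factor that drives motile cilia, had 332, 546, 633 and 545 reads under saline, against 833, 574, 661 and 697 under METH (edgeR, log2 fold change 0.48, standard error 0.16, FDR = 0.270). The summed ependymal level ranged from 89.1 to 103 CPM in saline rats and from 82.2 to 131 CPM in METH rats. METH rats 1 and 4, the highest for both Clic6 and Folr1, were also the highest for this sum, and its part in the values of these genes was not tested.

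Of 10 meningeal and vascular fibroblast genes, Ogn was at 0 in all rats and Col1a2 had 2 reads in saline rat 2 only, whereas Col1a1 had 198 to 516 reads. Their sum ranged from 67.8 to 123 CPM in saline rats and from 71.6 to 118 CPM in METH rats. METH rat 3, highest for Ttr, was at 83.0 CPM. Hypothalamic peptide genes summed to 16.3 to 51.7 CPM in saline rats and to 16.7 to 89.1 CPM in METH rats, where Oxt made up most of the highest value, in METH rat 4. That rat had no Ttr read. Of the peptide genes of the lateral hypothalamus, Pmch was at 0 in all rats and Hcrt had 18 to 64 reads. The summed oligodendrocyte, astrocyte, endothelial, thalamic and blood genes overlapped between the groups, and of these 26 genes in the table none was called. Cx3cr1 was the 1 called gene among 6 microglial genes, where 0.516% of all tested genes were called, and its log2 fold change was -0.73 (FDR = 0.0408, edgeR). Of these 6 genes 5 were lower in METH rats, as were 6172 of all 12014 genes tested. At an unadjusted p below 0.05, 2 of the 6 were lower, against 4.88% of all tested genes.

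**Figure D4:**
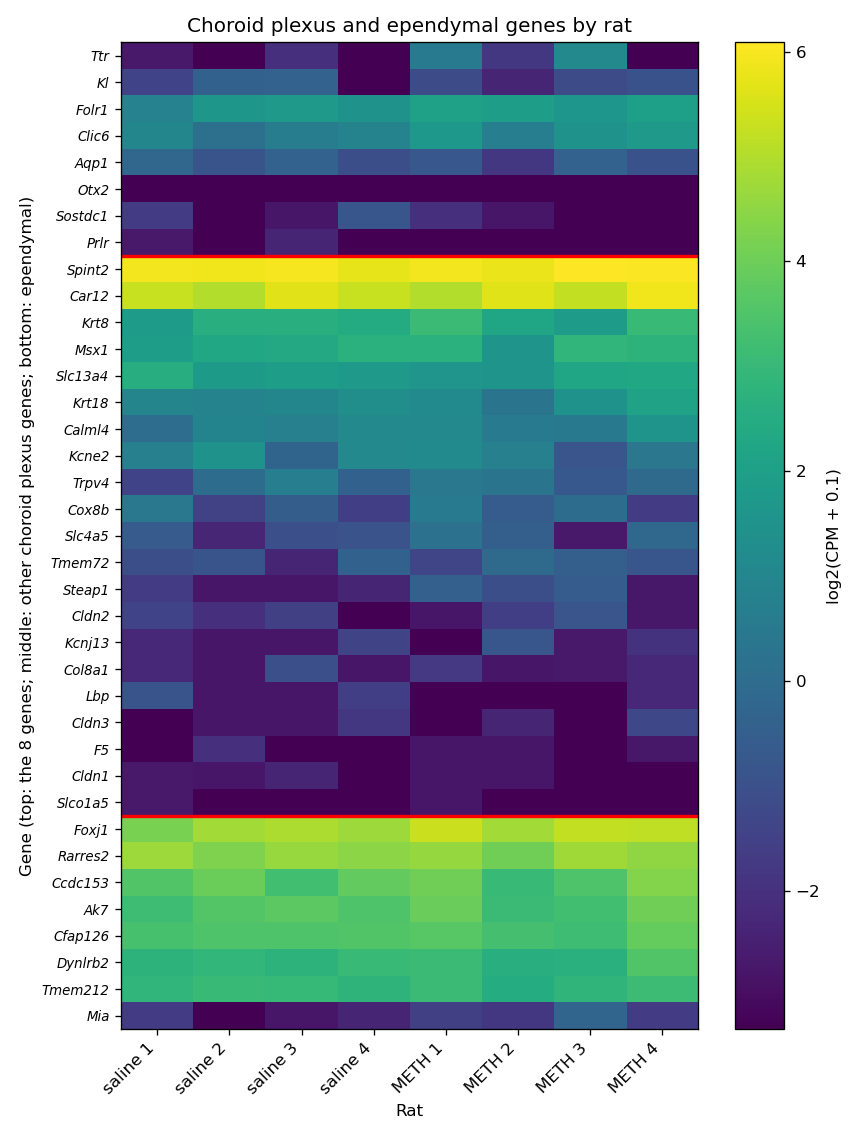
Level of the 8 genes, 21 other choroid plexus genes and 8 ependymal genes in each rat, as log2 of CPM with 0.1 added. Dark cells in the upper blocks are genes at or near 0 reads, such as Otx2, Prlr and Slco1a5, and the ependymal genes are bright in all 8 rats except Mia.

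The 10 genes whose pattern over the 8 rats was most like that of Folr1 and Clic6 were not on the choroid plexus list. With 11 tested genes of that list among 12012, their absence from the first 10 says little. Likeness was the Pearson r of log2 CPM with the mean of the standardized values of both genes, ranked over 12012 other genes, and these points share libraries and depth. The first was Dusp2, a MAP kinase phosphatase gene, with r = 0.95, followed by Dedd, RGD1311251, Phf13, LOC314140, Frmd6, Fbxl14, Phtf2, Mgmt and Metap1d, the last with r = 0.92. Of the 11 tested choroid plexus genes, Calml4 came first at rank 595 (r = 0.63) and Krt8 next at rank 774 (r = 0.58). Msx1, Krt18, Trpv4, Slc4a5 and Spint2 followed at ranks 1274 to 2345, with r from 0.50 down to 0.34. Car12 had r = 0.24 and Cox8b r = 0.04, and Kcne2 and Slc13a4 had r = -0.20 and r = -0.21. These values describe the 8 rats only, and the highest r among 12012 genes over 8 points is expected to be large.

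RefSeq promoters of assembly GRCr8, from 250 bases before to 50 bases after the start of a transcript, were searched for TAATCC on both strands, the core that OTX factors bind. Promoters were found for 4 of the 8 genes, Ttr, Kl, Aqp1 and Prlr, the last with a pair of starts. None of these 5 promoters held the core, and none of 22 promoters of the other choroid plexus genes did, while 7.17% of all 33469 promoters held it. The absence says only that these letters are not in these windows.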

How the data were processed

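Striatal mRNA of 8 rats was sequenced as paired-end poly(A)-selected libraries. Raw counts per gene were deposited, which the authors made with Cutadapt 1.18 (trimming), STAR 2.7.0e (alignment to rn6) and featureCounts of Subread 1.6.4 (versions per the submitters' processing notes). Annotation, strand setting and multi-mapping are not given in the sources used here. Columns were assigned to rats by group and number.

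Here, counts were filtered with filterByExpr (minimum count 10), scaled by TMM and tested with the quasi-likelihood test of edgeR 4.0.16 (R 4.3.3) with Benjamini-Hochberg adjustment. Calls used an FDR below 0.05. A mean log2 CPM threshold of 1, DESeq2 1.42.0, limma 3.58.1 and other alternatives were tried. Log2 CPM used a prior count of 2. A standard error is the size of the log2 fold change divided by the square root of F. Exact permutation used the 70 labellings of 4 of 8 rats. The test was checked on simulated data.

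The members and lists were chosen with earlier results of these data known. Named genes are the 8 members, up to 8 other choroid plexus genes with the highest mean CPM, called or non-overlapping list genes, and the 10 genes of most similar pattern. Others named were chosen after their values were seen. Coordinates are not given, since the RefSeq table is of GRCr8 and the counts are of rn6.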

Additional observations from a re-analysis of the deposited data

How the results depend on the processing

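Folr1 and Clic6 were not called under any of the 18 alternatives to the quasi-likelihood fit, which include leaving out single rats. Ttr, Kl, Sostdc1 and Prlr had an adjusted p only in the fit of all genes with at least 1 read, and Aqp1 there and with 5 of the 8 rats left out in turn, and none was called in these fits. Otx2 could not be tested. For Clic6 the log2 fold change was between 0.64 and 0.99 (FDR 0.287 to 0.667) and that of Folr1 between 0.28 and 0.55 (FDR 0.507 to 0.694). Ttr was given no adjusted p by DESeq2. The number of called genes was 62, and it was 185 with the Wald test of DESeq2, 180 with the likelihood ratio test and 37 with the replicate block. It ranged from 37 to 70 with 1 rat left out, and the 37 was without saline rat 2. The causes were not tested. The rats share only a number: the correlation of same-numbered rats' deviations was -0.09 on average, and with the replicate block the log2 fold change of Clic6 was 0.78. The difference in log2 CPM of Kl was 0.25 with a prior count of 0.5, and with 1 rat left out it lay between -0.68 and 0.30, so its sign was not fixed. The relation of the other genes to Ttr across rats was not run, because the rats fell into separate clusters. Depth limits Ttr, Kl, Aqp1, Sostdc1 and Prlr, which had at most 36, 14, 14, 10 and 2 reads in any rat.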
